A study of Homo sapiens with 40 samples.

Results

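The accessible chromatin regions of the MAP2K6 and MAP2K3 loci, both on chromosome 17, were followed with ATAC-seq in the breast cancer line BT474 and its resistant derivative BT474R. MAP2K6 spans chr17:69414697-69553865 and MAP2K3 spans chr17:21284672-21315232 on GRCh38, both on the plus strand. The peaks of all 40 libraries were merged where they overlapped by at least 1 bp, and merged regions found in 2 or more lists were kept. A region belonged to a locus if its midpoint lay in the gene body annotated by GENCODE or within 50 kb of either end of the gene. Members were thus chosen by peak presence and position. This gave 14 of 71600 regions, 4 at MAP2K6 and 10 at MAP2K3. They are numbered from the lowest to the highest coordinate within each locus.

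MAP2K6 and MAP2K3 encode the dual-specificity kinases MKK6 and MKK3, which phosphorylate and activate the p38 MAP kinases. The p38 module relays stress, cytokine and growth factor signals from upstream MAP kinase kinase kinases to kinases and transcription factors that control growth arrest, survival, migration and inflammation. ATAC-seq marks DNA that the Tn5 transposase can reach, so promoters and enhancers in use appear as peaks. A peak says that a stretch of DNA was open, and it does not measure the activity of the gene beside it.

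BT474 is a HER2-amplified luminal breast cancer line that is sensitive to the HER2 antibody trastuzumab. BT474R is a trastuzumab-resistant derivative that is 1 clone of BT474, so a difference between the lines may belong to that clone. Cells of both lines were serum-starved and then given EGF, a ligand of EGFR, HRG (heregulin, a ligand of HER3 and HER4) or the water vehicle (control), and were collected at 1, 12 and 24 h. Baseline cells were collected after starvation, at 0 h. Each of the 20 groups had 2 libraries, and nothing in the labels says whether the 2 came from separate cultures, so p-values measure only the spread between these libraries.

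Every peak carries a score, which is the summed significance over the length of the peak. The score depends on the depth of its own library, so each peak was described by its rank percentile, which is its place among all peaks of its list from 0 (weakest) to 100 (strongest). Read counts were not analysed here and the depth of the libraries is unknown. BT474 lists held 47571 to 56846 peaks. Those of BT474R held 32479 to 56494. In BT474R, the 6 HRG lists (32479 to 45808 peaks) were all shorter than the 6 control lists (47474 to 56494 peaks), and no peak had a score under 200 in any list. Promoters of the luminal epithelial markers KRT8, KRT18, KRT19, EPCAM, CDH1, GATA3 and ERBB2 had a peak in 40 of 40 libraries. No region lay at the promoters of PTPRC, CD3E and PECAM1, which mark blood and endothelial cells, whereas VIM and COL1A1, listed as fibroblast markers, had promoter peaks in 40 of 40.

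Membership used the presence of a peak in at least 2 of the 40 lists, with no regard to line or treatment. The member found in the fewest lists was MAP2K3 region 2 with 13. A stretch at chr17:69407852-69408067, 6.7 kb before MAP2K6, was left out because it had a peak in 1 list only, BT474 with EGF at 1 h, at percentile 3.8. The farthest member lay 47.0 kb from MAP2K6, and the nearest region beyond the limit lay 53.5 kb from it and had a peak in 29 lists. At MAP2K3 the farthest member lay 42.4 kb and the nearest region outside lay 56.4 kb from the gene.

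Sequences are shown for 4 stretches, since the ligand-dependent regions of both genes and the main promoters carry the comparison. The letters of the AP-1 element, TGANTCA, were searched on both strands in 300 bp around the median summit of every region. Letters of the CRE, GATA, FOX, TEAD, ETS, STAT, NF-Y, SP and CArG elements were searched in the same way, and most of these are not shown. AP-1 is the Fos and Jun dimer that is induced by growth factor signalling. In the window of MAP2K6 region 3, inside the last intron (chr17:69540063-69540362, GRCh38, plus strand), capitals mark 2 AP-1 matches:
MAP2K6 region 3: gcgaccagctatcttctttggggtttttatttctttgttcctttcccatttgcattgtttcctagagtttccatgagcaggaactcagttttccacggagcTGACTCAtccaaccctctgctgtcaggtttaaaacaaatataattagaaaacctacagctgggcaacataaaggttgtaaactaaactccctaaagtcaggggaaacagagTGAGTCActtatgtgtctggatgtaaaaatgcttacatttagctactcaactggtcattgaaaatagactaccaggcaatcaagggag
The matches begin at 69540164 and 69540275, and the 32 peak summits lay 11 to 93 bp from the downstream match and 18 to 100 bp from the upstream match. MAP2K3 region 8 covers a start site inside the first intron that is annotated for non-canonical transcripts, 3325 bp downstream of the canonical start. In the intron just after the 56 bp exon of that start (chr17:21288092-21288241, GRCh38, plus strand), capitals again mark 2 AP-1 matches:
MAP2K3 region 8: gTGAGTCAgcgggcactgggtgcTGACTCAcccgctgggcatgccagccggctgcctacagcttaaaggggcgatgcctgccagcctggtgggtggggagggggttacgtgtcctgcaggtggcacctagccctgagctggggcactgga
These matches begin 57 and 79 bp after the alternative start, 22 bp apart. The window of region 8 also had 1 ETS match at 21288083, before the printed stretch, and ETS letters were found in 4.8% of all regions. Of all 71600 regions, 19.2% had at least 1 AP-1 match in the window and 2.65% had 2 or more. Over the 14 members the windows of 4 had an AP-1 match, MAP2K6 region 3 and MAP2K3 regions 1, 6 and 8. MAP2K3 regions 1 and 6, with no ligand call, thus had 1 AP-1 match each. MAP2K3 region 7, called with HRG in BT474, had none. The main promoter of MAP2K3, shown up to its AP-1 match (chr17:21284427-21284676, GRCh38, plus strand), had 1 match in capitals:
MAP2K3 promoter: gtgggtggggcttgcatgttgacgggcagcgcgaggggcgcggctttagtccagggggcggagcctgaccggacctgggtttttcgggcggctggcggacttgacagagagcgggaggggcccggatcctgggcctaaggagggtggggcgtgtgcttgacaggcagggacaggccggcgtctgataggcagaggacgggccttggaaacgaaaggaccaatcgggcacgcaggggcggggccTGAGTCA
The 250 bases before the MAP2K6 start (chr17:69414447-69414696, RefSeq, GRCh38.p14, plus strand) had no AP-1 match. Capitals mark 2 matches to the GATA element, searched on both strands as AGATAA or TGATAA and here read from the opposite strand:
MAP2K6 promoter: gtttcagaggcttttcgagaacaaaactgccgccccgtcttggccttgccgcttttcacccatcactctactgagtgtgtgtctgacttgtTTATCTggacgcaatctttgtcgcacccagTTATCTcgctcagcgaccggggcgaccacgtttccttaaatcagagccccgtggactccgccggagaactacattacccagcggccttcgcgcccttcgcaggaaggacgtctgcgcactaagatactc
GATA letters were found in 16.3% and AP-1 letters in 7.7% of 34961 promoter windows of RefSeq (300 bp). The GC content was 68.4% in the MAP2K3 stretch and 55.6% in the MAP2K6 stretch. A match is only a match of letters. It shows neither that a factor bound there nor that it acted.

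The loci differed in how much open chromatin they held. MAP2K6 is 139.2 kb long and its window of 239.2 kb held 4 regions, or 1.67 regions per 100 kb. MAP2K3 is 30.6 kb long and its window of 130.6 kb held 10 regions, or 7.66 per 100 kb. At MAP2K6 only the promoter, region 2, had a peak in all 40 libraries, against 7 of 10 regions at MAP2K3. In the whole series 35.1% of regions had a peak in all libraries. Each BT474 library had a peak in 3 or 4 of the 4 MAP2K6 regions (median 4) and each BT474R library in 1 to 3 (median 2). At MAP2K3 both lines had a median of 9 of 10 regions, with 9 to 10 in BT474 and 7 to 10 in BT474R.

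**Figure D1:**
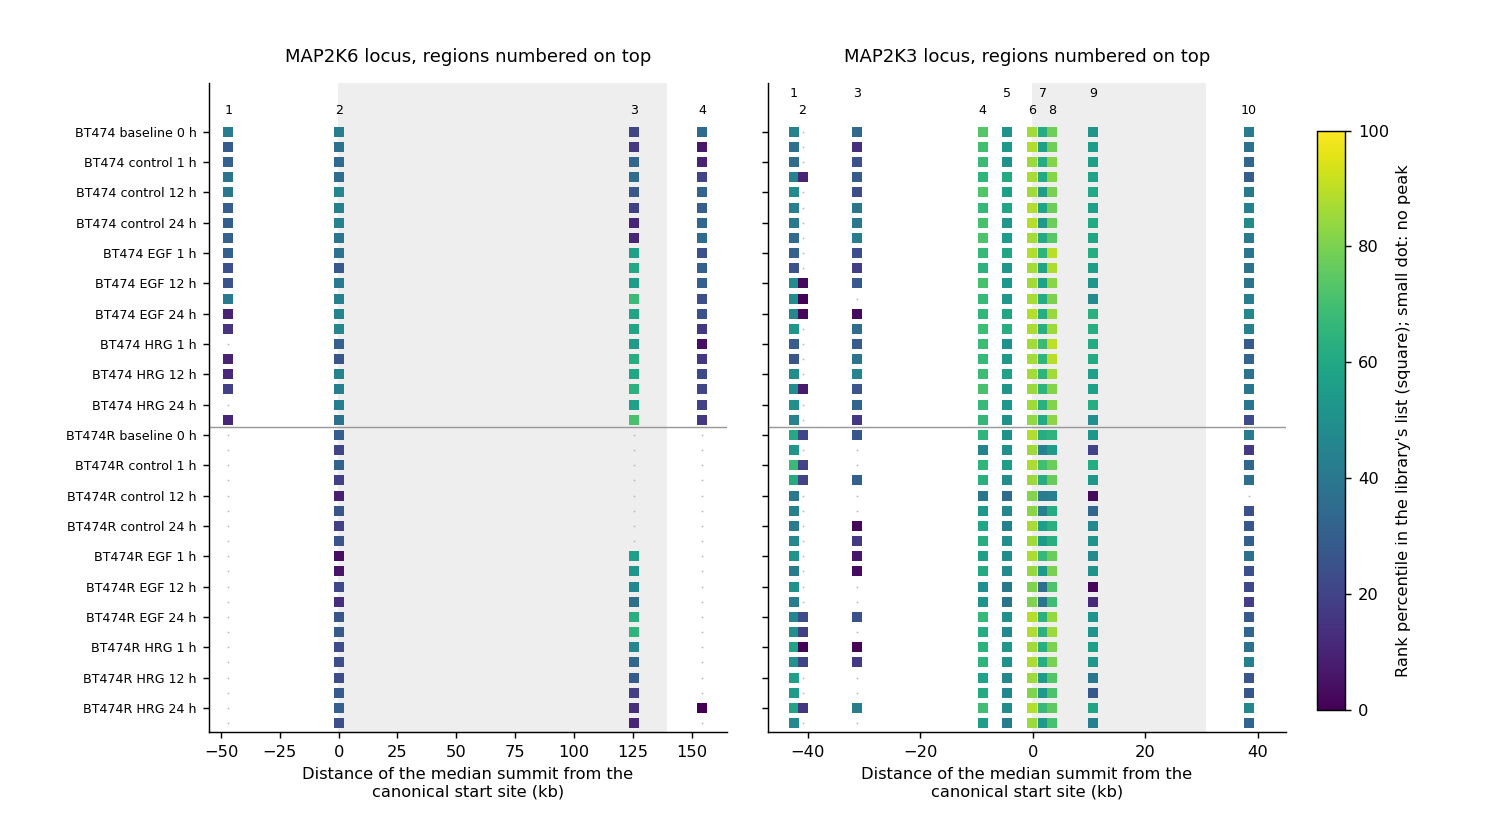
Peaks at the MAP2K6 locus (left) and the MAP2K3 locus (right) in each library (rows, 2 per condition, BT474 above the line and BT474R under it), by distance of the median summit from the canonical start (kb). Squares are peaks coloured by rank percentile, small dots mark no peak and grey marks the gene body. MAP2K6 regions 1 and 4 are nearly empty in BT474R, and region 3 has peaks there only in the 12 EGF and HRG libraries.

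MAP2K6 region 3 was the member that changed most with ligand. It lies in intron 11, the last intron of the canonical transcript of 12 exons, at chr17:69539678-69540489 (812 bp), 125.5 kb downstream of the start and 13.7 kb before the gene's end. The nearest annotated start of a coding gene, that of another MAP2K6 transcript, was 3612 bp away. In BT474 the region had a peak in all 20 libraries. In BT474R it had none in the 2 baseline and 6 control libraries and a peak in 6 of 6 EGF and 6 of 6 HRG libraries.

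In BT474 the percentile of region 3 was 20.4 and 16.0 at baseline. Control libraries had 32.5 and 35.0 at 1 h, 27.0 and 18.9 at 12 h, and 10.5 and 10.9 at 24 h. EGF libraries had 56.4 and 59.9 at 1 h, 54.7 and 67.9 at 12 h, and 58.6 and 59.0 at 24 h. All 6 EGF values thus lay above all 8 baseline and control values. HRG libraries had 54.8 and 61.9 at 1 h, 59.5 and 63.8 at 12 h, and 57.2 and 70.8 at 24 h, again with no overlap. On the score itself, the median was 318.4 in control (246.3 to 412.0, n = 6), 700.6 with EGF (669.5 to 865.4, n = 6) and 778.0 with HRG (642.5 to 934.1, n = 6). The median peak width was 441.5 bp in control, 607.0 bp with EGF and 616.5 bp with HRG.

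The percentile of region 3 was higher by 36.96 with EGF than in control (SE 2.84, limma over 36820 regions with a peak in all 20 BT474 libraries, adjusted p = 3.69e-06). With HRG it was higher by 38.86 (SE 2.84, limma, adjusted p = 1.99e-06). Both comparisons used the same 6 control libraries. Of all regions tested, 17.6% were called higher and 1.19% lower with EGF, and 13.0% and 5.71% with HRG, so a call as such is common in this line. The median difference over all regions was 0.88 with EGF and -0.20 with HRG. EGF and HRG differed by -1.91 at region 3 (95% interval -8.04 to 4.22, limma, adjusted p = 0.773).

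In BT474R the percentile of region 3 with EGF was 55.6 and 52.6 at 1 h, 46.7 and 36.0 at 12 h, and 62.6 and 64.9 at 24 h. With HRG it was 46.0 and 32.8 at 1 h, 28.8 and 18.0 at 12 h, and 12.9 and 10.3 at 24 h. At each time both EGF libraries lay above both HRG libraries, and the EGF range of BT474R (36.0 to 64.9) overlapped that of BT474. All 6 HRG values lay under every ligand value of BT474, and 5 of 6 lay under every EGF value of BT474R. The scores with HRG ran from 242.1 to 487.0 (median 306.6, n = 6), near the lowest listed score of 200, and with EGF from 371.6 to 781.7 (median 581.0, n = 6). The peaks were also narrower with HRG, with a median width of 302.0 bp against 710.0 bp with EGF.

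Presence at region 3 differed between EGF and control and between HRG and control in BT474R with an unadjusted p of 0.00216 each (Fisher's exact test, two-sided, 6 against 6, the smallest p this design allows). Neither passed adjustment over all 71600 regions (adjusted p = 1.0 in both), and no region in the genome did. At the unadjusted threshold of 0.05, 250 regions (0.349%) were called higher and 0.0391% lower with EGF, and 148 (0.207%) and 0.0% with HRG. No member was called by presence in the other arm comparisons. There the shares higher and lower were 1.15% and 0.0433% for EGF and 1.33% and 0.311% for HRG in BT474, and between EGF and HRG 0.0433% and 0.00559% in BT474 and 0.014% and 0.0796% in BT474R. In these bulk libraries fewer cells with the site open and less opening per cell cannot be told apart. A peak in no baseline or control BT474R library and in all 12 ligand libraries was found at 16 regions (0.0223%), and 3 of these (0.00419%) also had a peak in all BT474 libraries. When the 32479 strongest peaks of each list were used, so that all lists had equal length, the EGF count stayed at 6 of 6 and the HRG count fell to 1 of 6. The HRG count was also 1 of 6 when 50% of the region had to be covered or when the score had to reach 400, and the EGF count was then 6 and 5.

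Between the 2 ligand arms of BT474R, which both had peaks in all libraries, the percentile of region 3 was higher by 28.28 with EGF than with HRG (SE 3.27, limma on these 12 libraries over 32534 regions, adjusted p = 0.00528). In that fit 1.48% of regions were called higher and 6.14% lower with EGF. The difference stood beside shorter HRG lists, whose part in it was not tested. With no peak set to 0, which lets BT474R be tested against BT474, the EGF effect at region 3 was larger in BT474R by 16.12 (SE 4.19, limma, adjusted p = 0.0151) and the HRG effect differed by -14.07 (SE 4.19, adjusted p = 0.0459). In that fit 4.0% of regions were called higher and 5.11% lower for EGF, and 3.22% and 3.12% for HRG. The baseline and control libraries of BT474R all entered as 0 at region 3 and added no spread, so both p-values may be too small. The mean percentile with EGF was not higher in BT474R (53.1) than in BT474 (59.4).

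**Figure D2:**
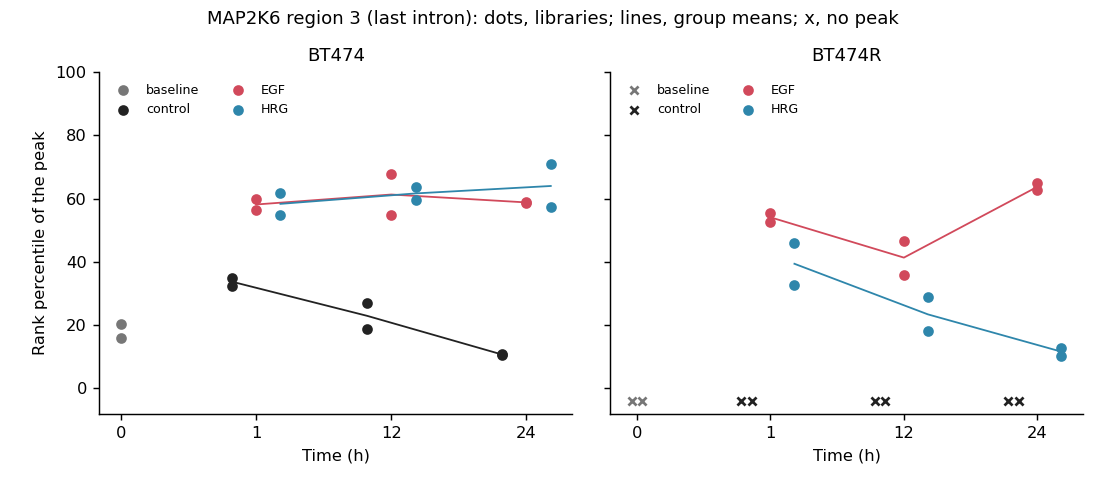
Rank percentile of the peak at MAP2K6 region 3 against time (0, 1, 12 and 24 h, evenly spaced) in BT474 (left) and BT474R (right); dots are libraries, lines join group means and crosses mark libraries with no peak. In BT474 both ligand arms sit between 54.7 and 70.8, above control at 10.5 to 35.0; in BT474R the control and baseline libraries have no peak and the HRG arm sits at 10.3 to 46.0.

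The other MAP2K6 regions separated the lines. Region 1 (chr17:69367412-69367951), an intergenic site 47.0 kb before the start, had a peak in 18 of 20 BT474 and 0 of 20 BT474R libraries (Fisher's exact test, adjusted p = 5.08e-08). Region 4 (chr17:69569092-69569567), an intergenic site 15.4 kb past the gene's end, had a peak in 20 of 20 and 1 of 20 (adjusted p = 5.78e-09). The BT474R peak was in HRG at 24 h, at percentile 0.2. Region 3 differed as well, with 20 and 12 of 20 (adjusted p = 0.0128), and with 8 and 0 of 8 in the baseline and control libraries alone (adjusted p = 0.00239). Those BT474 peaks were weak, with scores of 275.3 to 301.4 at baseline and 246.3 to 412.0 in control. With lists of equal length, only 1 of 6 BT474 control libraries kept a peak at region 3, against 0 of 6 in BT474R. Across all 71600 regions 18.4% of regions were called lower and 11.0% higher in BT474R by the presence test over all libraries. None of the 4 MAP2K6 regions was called higher. Regions with a peak in at least 18 BT474 libraries and in no BT474R library numbered 2605 (3.64%).

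Regions 1 and 4 were weak peaks even in BT474. The percentile of region 1 was 9.4 to 41.6 (median 29.2, n = 18). Region 4 had 3.9 to 34.7 (n = 20). With lists of equal length, region 1 kept a peak in 3 of 20 BT474 libraries and region 4 in 0 of 20, so the calls on both ended (adjusted p = 0.529 and 1.0), as did that on region 3 (13 and 7 of 20, adjusted p = 0.29).

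In BT474 region 1 was weaker with HRG. Its percentile was 30.7 and 38.1 in control at 1 h, 38.8 and 29.8 at 12 h, and 29.6 and 30.8 at 24 h. With HRG there was no peak in 2 of 6 libraries, 1 at 1 h and 1 at 24 h, and the other 4 had 9.4 to 18.9, under every control value. With EGF all 6 libraries had a peak, with 30.3 and 24.6 at 1 h, 25.7 and 40.9 at 12 h, and 9.4 and 15.2 at 24 h. Both EGF values lay under both controls at 1 h and at 24 h, and at 12 h 1 value lay under and 1 above both controls. Presence was 4 of 6 against 6 of 6 (Fisher's exact test, p = 0.455), and the percentile could not be fitted over peaks alone. With no peak set to 0, the fall with HRG was by 24.55 (SE 3.76, limma over 71600 regions, adjusted p = 0.00119), and in that fit 4.12% of regions were called lower and 10.9% higher. At region 4 the BT474 percentile was 16.5 ± 6.59 with HRG and 26.3 ± 9.69 in control (SD, n = 6 each), with overlapping ranges and a difference of -9.83 (SE 4.29, limma, adjusted p = 0.139). This difference passed without either baseline library (adjusted p = 0.0433 without replicate 1 and 0.0409 without replicate 2).

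The MAP2K6 promoter, region 2 (chr17:69414375-69414937, over exon 1), was open in all 40 libraries but was a modest peak. Its mean percentile was 30.4, lower than the promoters of all but 10.4% of 14212 protein-coding genes with a promoter region. BT474 libraries had 26.3 to 46.4 (median 41.6, n = 20). BT474R libraries had 3.8 to 31.6 (median 23.4, n = 20). The lines overlapped only between 26.3 and 31.6. The percentile was lower by 17.87 in BT474R (SE 1.61, limma over 25166 regions with a peak in all 40 libraries, adjusted p = 4.54e-10). In that fit 50.2% of regions were called lower and 32.6% higher in BT474R, with a median difference of -1.51, so a call as such marks no region as unusual. With equal list lengths the promoter had a peak in 15 of 20 BT474 and 4 of 20 BT474R libraries (Fisher's exact test, adjusted p = 0.00521).

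No ligand difference at the MAP2K6 promoter passed the test. In BT474 it differed from control by -0.14 with EGF (95% interval -4.72 to 4.44) and by -3.21 with HRG (-7.79 to 1.37). In BT474R the values were -5.60 (-13.84 to 2.64) and 3.53 (-4.71 to 11.77). The adjusted p of these 4 limma comparisons ran from 0.345 to 0.978. The lowest promoter values in the series were those of BT474R with EGF at 1 h, 3.8 and 5.1.

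At MAP2K3 the ligand-dependent region was region 8 (chr17:21287352-21288648), over the start of the non-canonical transcripts. It had a peak in all 40 libraries, with a mean percentile of 76.7 and a range of 43.0 to 90.1. In BT474 control libraries it had 81.6 and 81.9 at 1 h, 79.5 and 77.5 at 12 h, and 77.6 and 73.5 at 24 h. With EGF it had 89.1 and 87.8 at 1 h, 82.2 and 80.4 at 12 h, and 84.6 and 85.2 at 24 h. At each time both EGF libraries lay above both controls. With HRG it had 90.1 and 89.4 at 1 h, 86.1 and 81.6 at 12 h, and 81.2 and 82.6 at 24 h, also above the controls of the same time.

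In BT474R, region 8 had 77.1 and 76.8 in control at 1 h, 43.0 and 61.2 at 12 h, and 63.4 and 63.2 at 24 h. With EGF it had 77.3 and 79.8 at 1 h, 71.9 and 69.0 at 12 h, and 83.8 and 85.1 at 24 h. With HRG it had 80.2 and 79.6, 72.8 and 71.7, and 75.3 and 70.8 at the same times. Within each time all ligand libraries were above the controls, by the least at 1 h.

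The percentile of region 8 was higher with EGF by 6.31 in BT474 (SE 0.88, limma, adjusted p = 0.000235) and by 13.71 in BT474R (SE 2.69, adjusted p = 0.00422). With HRG it was higher by 6.61 in BT474 (SE 0.88, limma, adjusted p = 0.000159) and by 10.94 in BT474R (SE 2.69, adjusted p = 0.0261). In BT474R 9.8% of the 28260 regions tested were called higher and 4.37% lower with EGF, and 8.17% and 0.0283% with HRG, and the median difference over all regions was -0.07 with EGF and 2.32 with HRG. The HRG call in BT474R was lost (adjusted p = 0.0888) when only its 12 libraries entered the fit, and it was lost when any of 8 of the 20 libraries was left out. EGF and HRG differed by -0.30 in BT474 (95% interval -2.21 to 1.60) and by 2.77 in BT474R (-3.05 to 8.59). The EGF effect was larger in BT474R than in BT474 by 7.41 (95% interval 1.47 to 13.35), which did not pass adjustment (limma, adjusted p = 0.183). It passed with lists of equal length (8.60, adjusted p = 0.0487) and without replicate 2 of BT474R control at 12 h (adjusted p = 0.00233). The HRG effect differed by 4.33 (-1.60 to 10.27, adjusted p = 0.481) and passed without the same library (adjusted p = 0.0189). No member was called for a difference of effect with all libraries in this fit, where 0.421% of regions were called higher and 2.62% lower for EGF, and 0.779% in each direction for HRG. Region 8 was lower by 11.32 in BT474R over all conditions (SE 1.11, adjusted p = 1.99e-09).

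**Figure D3:**
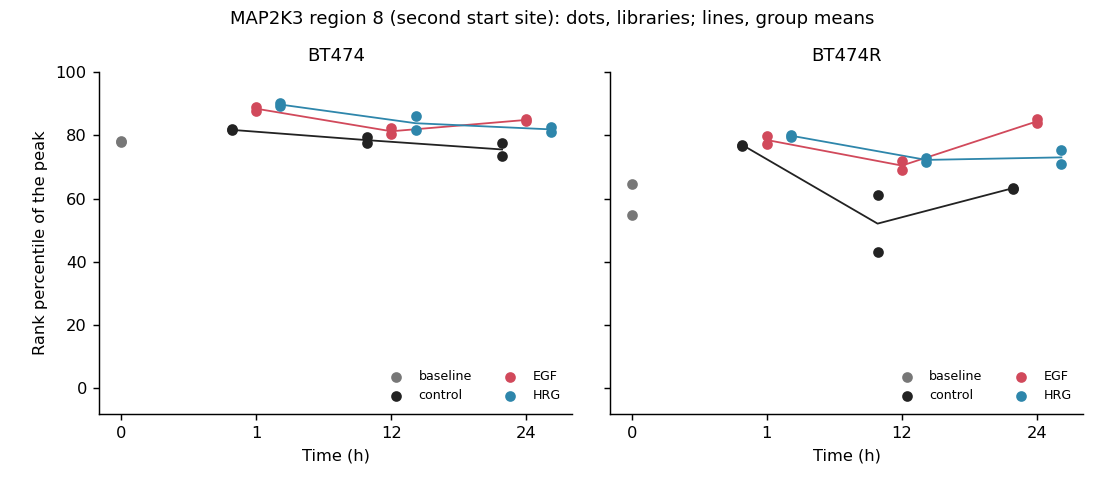
Rank percentile of the peak at MAP2K3 region 8 against time (0, 1, 12 and 24 h, evenly spaced) in BT474 (left) and BT474R (right); dots are libraries and lines join group means. Ligand libraries sit above the controls of the same time in both lines; the gap in BT474R is narrow at 1 h (EGF 77.3 and 79.8, control 77.1 and 76.8) and wider at 12 and 24 h.

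The canonical MAP2K3 promoter, region 6 (chr17:21283890-21285350, 1461 bp), was the strongest and steadiest member. Its percentile was 81.0 to 88.9 over the 40 libraries (mean 86.1), higher than the promoters of 64.7% of protein-coding genes. The 4 ligand comparisons gave -1.31 to 0.72, none past the test, and no 95% interval went past -2.72 or 2.83. BT474R was lower by 1.29 (SE 0.47, limma, adjusted p = 0.0144), a difference that turned to 0.32 higher with lists of equal length.

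Region 7 (chr17:21285945-21286782), in intron 1 between the main promoter and the alternative start, was higher with HRG in BT474. The percentile was 60.4 to 67.6 with HRG (median 64.6) against 53.3 to 61.4 in control (median 59.4), with overlap of the ranges. The difference was 6.16 (SE 1.70, limma, adjusted p = 0.0213), and it was lost when any of 5 of the 20 BT474 libraries was left out. With EGF the difference was 2.93 (SE 1.70, adjusted p = 0.279). In BT474R it was -0.66 with EGF and 4.39 with HRG, and neither passed (adjusted p = 0.956 and 0.493).

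None of the other MAP2K3 regions that could be tested by percentile passed with either ligand in either line when all libraries were used. Region 10 differed by -6.00 with HRG in BT474 (SE 2.64, limma, adjusted p = 0.143), and it passed without HRG at 24 h replicate 1 (-8.75, adjusted p = 0.0111). In BT474 2 of 11 testable members of both loci were called with EGF and 3 of 11 with HRG, all higher, beside 17.6% and 13.0% of all regions tested. In BT474R 1 of 8 testable members was called higher with each ligand, beside 9.8% and 8.17%. Whether the members differ from other regions in this was not tested. No member was called between EGF and HRG in the fits over all libraries of a line, in which 0.0679% of regions were called higher and 0.0136% lower with EGF in BT474, and 0.103% and 3.17% in BT474R. The members not testable in BT474R were those lacking a peak in at least 1 of its 20 libraries, namely MAP2K6 regions 1, 3 and 4 and MAP2K3 regions 2, 3 and 10. Those not testable in BT474, for the same reason, were MAP2K6 region 1 and MAP2K3 regions 2 and 3.

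In the fit between the lines, 50.2% of all 25166 regions tested were called lower in BT474R and 32.6% higher. All 8 members with a peak in all 40 libraries were called, 7 lower and 1 higher in BT474R. Besides MAP2K6 region 2 and MAP2K3 regions 6 and 8, these were MAP2K3 region 4 (chr17:21275427-21276270) at the start of the lncRNA gene ENSG00000289453, 8.9 kb before MAP2K3, with a difference of -9.93 (SE 1.51), and the intergenic region 5, 4.5 kb before MAP2K3, with -7.99 (SE 1.16). Region 7 differed by -5.57 (SE 1.48). Region 9, 10.8 kb into the gene, differed by -16.60 (SE 2.57). The exception was region 1 (chr17:21241905-21242552), over the last exon of the neighbouring gene NATD1, which was higher by 9.69 in BT474R (SE 1.45, limma, adjusted p = 1.65e-06). Its percentile was 25.0 to 52.6 in BT474, overlapping the 40.6 to 67.6 of BT474R.

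Of the members with a peak in all libraries, region 9 had the largest SD within BT474R (18.5 over 20 libraries). In control it had 61.0 and 52.8 at 1 h, 2.4 and 33.5 at 12 h, and 47.0 and 51.8 at 24 h. With EGF at 12 h it had 1.3 and 11.8, and with HRG at 12 h 39.1 and 27.3. In BT474 it ran from 47.8 to 63.5 with no such dip. In BT474R the control mean was lower at 12 h than at 1 h in each of the 8 members with a peak in all libraries, from 64.4 to 41.9 at region 1, from 86.2 to 82.0 at region 6 and from 25.2 to 17.4 at MAP2K6 region 2, where the ranges overlapped. This comparison was not made over all regions, so the fall may not be particular to these loci. The 12 h control lists were not short (52162 and 56334 peaks). Region 10 had a peak in 1 of these 2 libraries and regions 2 and 3 in neither.

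**Figure D4:**
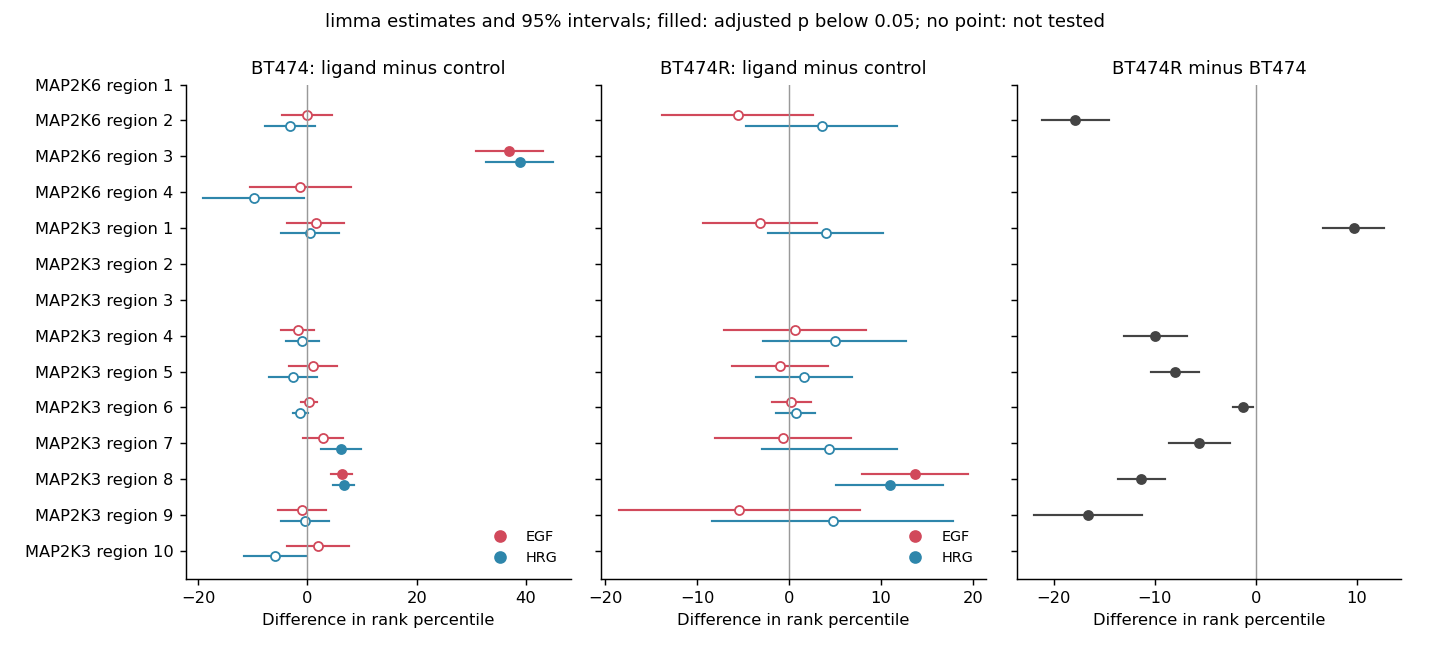
limma estimates with 95% intervals of the difference in rank percentile for the 14 members, for ligand minus control in BT474 (left) and BT474R (middle) and for BT474R minus BT474 (right); filled points passed an adjusted p of 0.05 and members with no point were not tested. The panels have different scales, and the ligand estimates of 36.96 and 38.86 at MAP2K6 region 3 stand apart from those of the other members. In the right panel 7 of 8 line differences lie under 0. Of all regions tested there, 50.2% were called lower and 32.6% higher in BT474R.

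The remaining MAP2K3 regions were the weakest. Region 2, in an intron of NATD1, had a peak in 5 of 20 BT474 and 8 of 20 BT474R libraries at percentiles of 0.4 to 22.8. Region 3 (chr17:21252827-21253625), the NATD1 promoter, had a peak in 19 and 10 of 20 (Fisher's exact test, adjusted p = 0.0129), a call that ended with lists of equal length (5 and 1 of 20, adjusted p = 0.458) and in the baseline and control libraries alone (8 and 4 of 8, adjusted p = 0.314). Region 10 (chr17:21322840-21323269), 7.9 kb past the gene's end, had a peak in 39 of 40 libraries at 17.2 to 48.2. It was the only member for which the search found a copy elsewhere. This copy, at chr17:21764707-21765007, was 97.0% identical over 70.0% of the region's length, so reads could be shared with it. The search covered closely similar sequence of the reference chromosomes only. MAP2K3 lies in a segment with duplicated sequence. More diverged copies, or copies absent from the reference, could have been missed for any member.

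The promoters of the other MAP kinase kinases were set beside those of MAP2K3 and MAP2K6. MAP2K1 and MAP2K2 encode MEK1 and MEK2 of the ERK cascade, and the MAP2K5 product activates ERK5. MAP2K4 and MAP2K7 encode activators of JNK, which need not be their only target. Over the libraries of both lines that had a peak, MAP2K3 ranked highest in mean percentile at 86.1, followed by MAP2K1 at 78.7, MAP2K4 at 59.9, MAP2K7 at 57.1, MAP2K2 at 40.3, MAP2K6 at 30.4 and MAP2K5 at 18.2. The ranges of all neighbours in this order overlapped, that of MAP2K1 (58.3 to 87.5) reaching into that of MAP2K3. The order differed by line. In BT474 it was MAP2K3 (86.7), MAP2K1 (84.6), MAP2K4 (70.6), MAP2K7 (62.9), MAP2K2 (46.1), MAP2K6 (39.4) and MAP2K5 (17.9), and in BT474R MAP2K7 (51.4) stood before MAP2K4 (49.2), and MAP2K6 (21.5) beside MAP2K5 (21.4, 2 libraries). The difference of BT474R from BT474 was -11.68 at MAP2K1 (SE 0.98), -21.38 at MAP2K4 (SE 2.40) and -11.55 at MAP2K7 (SE 2.19), all past the limma threshold (adjusted p = 1.3e-10, 1.86e-08 and 4.06e-05). The MAP2K5 promoter had a peak in 18 of 20 BT474 and 2 of 20 BT474R libraries (Fisher's exact test, adjusted p = 5.33e-06). With a ligand, the percentile could be tested at MAP2K1, MAP2K4 and MAP2K7 in both lines and at MAP2K2 in BT474, and none of these was called.

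**Figure D5:**
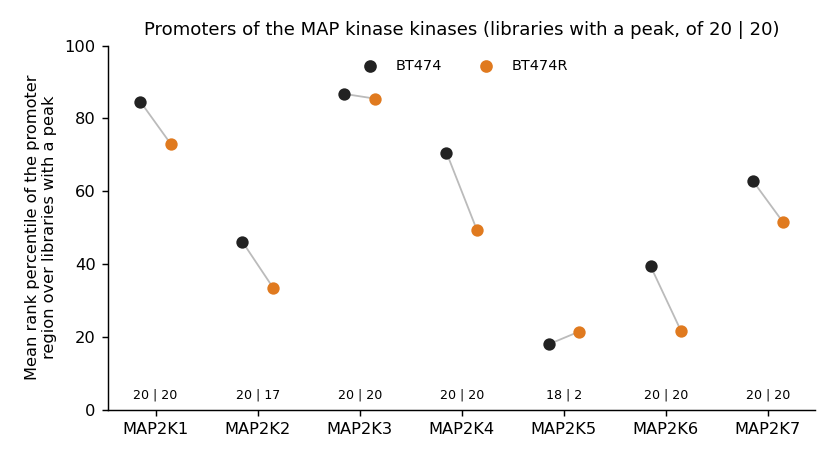
Mean rank percentile of the promoter region of the 7 MAP kinase kinase genes over the libraries with a peak, in BT474 (black) and BT474R (orange), with the number of libraries with a peak in each line above the axis. MAP2K3 is highest in both lines and MAP2K6 falls from 39.4 in BT474 to 21.5 in BT474R.

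The promoters of the rest of the p38 module and of kinases that belong to or are shared with the ERK, JNK and ERK5 cascades were examined as well. A list of 43 genes was used, made of 16 upstream kinases, the 5 other MAP kinase kinases, 4 p38 kinases, 7 downstream kinases, 5 phosphatases and 6 transcription factors. Promoter regions were found for 42 of them, and 36 had one with a peak in all 40 libraries. In BT474, with 40 genes testable, the percentile with EGF differed from control by -3.99 at DUSP1, a p38 and JNK phosphatase (SE 0.98, limma, adjusted p = 0.0108), and by -12.95 at the JNK pathway kinase MAP3K10 (SE 4.15, adjusted p = 0.0439). With HRG that of MAPKAPK5, a p38 substrate kinase, was higher by 1.23 (SE 0.38, adjusted p = 0.0376). In BT474R, with 37 genes testable, no promoter of the list passed with EGF or HRG. Of all regions, 17.6% were higher and 1.19% lower with EGF and 13.0% and 5.71% with HRG in BT474, and 9.8% and 4.37%, and 8.17% and 0.0283%, in BT474R. Between the lines, 8 genes had a promoter region called higher and 21 called lower in BT474R, of 36 testable, with MKNK2 in both counts through different regions. These shares stand beside 32.6% and 50.2% of all regions. Presence called 7 of the 42 genes with a promoter region between the lines, through any of their promoter regions and in both directions. Of all regions, 18.4% were called lower and 11.0% higher in BT474R by that test. No gene of the list was called by presence between arms.

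The genes whose promoter pattern was most like that of MAP2K6 over the 40 libraries were FASTK (Pearson r = 0.93), KRBA1 (0.923), BAD (0.913), RNF224 (0.91) and ADGRG1 (0.904). For MAP2K3 they were ZNF354B (0.872), BABAM2 (0.87), AP1B1 (0.857), BET1 (0.854) and CDK20 (0.844). The percentile was set to 0 where a library had no peak, and promoters of 14212 genes were compared. All points share the 40 lists, whose length and line affect every promoter, and 7023 genes had r above 0.5 with MAP2K6 and 7698 with MAP2K3, so the order is a description only.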

How the data were processed

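ATAC-seq libraries of BT474 and BT474R cells (20 groups of 2) were analysed from the peak lists that the authors deposited, in which peaks were called in each library separately. Per the submitters' notes and the study's methods, the authors trimmed reads with Trim Galore 0.6.6, mapped them to GRCh38.p13 with BBMap and called peaks with Genrich after removing mitochondrial and blacklisted reads. The options of Genrich, including its ATAC mode, which shifts intervals to the transposase cut sites, are not stated in the sources used here. The deposited columns are a score, the signal (summed significance of the peak, at least 200 in every list, called the score in the results), and −log10 p and −log10 q, which were not used further. Read counts were not analysed here, so depth and counting error are unknown, and a region present in all libraries can differ only in rank.

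Peaks of chromosomes 1 to 22 and X were merged. Presence was tested with Fisher's exact test (two-sided, time points pooled, 6 against 6 for arms and 20 against 20 for lines, scipy 1.17.1). Rank percentiles were tested with limma 3.58.1 (R 4.3.3; group means, equal weight for each time, trended variance) over regions with a peak in every library of the fit. Adjusted p-values are Benjamini-Hochberg values over all regions tested, and calls used 0.05 on the adjusted p, or on the unadjusted p for presence between arms. Genes came from GENCODE release 44, and promoter regions lay within 1 kb of an annotated start. Copies were searched with minimap2 2.31-r1302 on chromosomes 1 to 22, X and Y, with a preset for closely similar sequence. Both test steps were tested on simulated data. Alternatives were a score minimum, lists of equal length, 50% of the region covered, regions in 4 or more lists, a log2 scale, no peak set to 0, a replicate block, fewer groups in the fit and leaving out each library. The minimum of 400 on the signal and the fit without the 12 h libraries were added after the data were seen. Regions described are the promoters, those called in any comparison and the weakest and strongest of the rest. The members and gene lists were chosen with earlier results of these data known.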

Additional observations from a re-analysis of the deposited data

Results flagged for a closer look

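The 3 results here were picked out because the effect of a ligand differed between the lines in a test of that difference (limma with no peak set to 0, over all 71600 regions). At MAP2K6 region 3 the effect of EGF was larger in BT474R than in BT474 by 16.1 percentile points (SE 4.19, adjusted p = 0.0151). The mean with EGF was itself lower in BT474R, 53.1 against 59.4 in BT474. All 6 BT474R controls had no peak and entered as 0, against a control mean of 22.5 in BT474. At the same region the HRG effect differed by -14.1 (SE 4.19, adjusted p = 0.0459), so it was smaller in BT474R. At MAP2K6 region 1 the HRG effect differed by 24.5 (SE 3.74, adjusted p = 0.000144). BT474R had no peak there in any library, so this value is the fall of the region in BT474. Its effect in BT474R was fixed at 0, and its p adds nothing to the test of that fall. Groups with all values set to 0 add no spread, so the p-values of these 3 results may be too small. Setting no peak to 0 takes an unlisted peak, which may have a score just under 200, as the lowest rank. With this setting 4.0% of regions were called higher and 5.11% lower for the EGF difference, and 3.22% and 3.12% for the HRG difference. No group had enough libraries for a search for outlying libraries.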

How the results depend on the processing

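The 21 calls on single members, 2 of them (presence at MAP2K6 region 3 with EGF and with HRG in BT474R) at the unadjusted p only, were recomputed under 156 alternatives other than leaving out a library, where 139 kept direction and call, 16 lost the call and 1 reversed, and under 644 that left out a library, where 631 kept both and 13 lost the call. The reversal was MAP2K3 region 6 between the lines (0.32 with lists of equal length). The number of MAP2K6 regions was 4, and 2 within 10 kb and 1 in the gene body. That of MAP2K3 regions was 10, and 17 within 100 kb and 3 in the gene body.

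The number of members called by presence, at the unadjusted p between arms and the adjusted p between lines, changed as follows. With the signal at least 400 it was 1 with EGF and 1 with HRG in BT474 (0 with all peaks, region 3 of MAP2K6), 0 with HRG in BT474R and 2 between the lines (4 with all peaks). With lists of equal length it was 1, 1, 0 and 1 for these comparisons, and 1 between EGF and HRG in BT474R. With 50% of the region covered it was 0 with HRG and 1 between EGF and HRG in BT474R.

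The number called by percentile fell to 1 with EGF in BT474 and to 2, 3 and 4 between the lines with the signal minimum, equal lists and 50% covered, since fewer members had a peak in every library. With 50% covered it was 0 with either ligand in BT474R. With no peak set to 0 it rose to 2 with EGF and 2 with HRG in BT474R, 1 between them, 14 between the lines, and 1 (EGF) and 2 (HRG) for the differences of effect. Of all 71600 regions, that setting called 22685 higher and 32962 lower between the lines. In BT474R it called 7079 higher and 2230 lower with EGF, 3407 and 193 with HRG, and 1832 and 1696 between EGF and HRG. With lists of equal length the EGF difference of effect had 1 member called. With the libraries of the 2 arms alone the number of members called was 0 for HRG and 1 for EGF against HRG in BT474R. Leaving out 1 library gave 2 to 4 for HRG in BT474 (4 without either baseline library, adding MAP2K6 region 4, or without HRG at 24 h replicate 1, adding MAP2K3 region 10), 0 to 1 for HRG in BT474R, and 0 to 1 for both differences of effect (1 only without the library of BT474R control at 12 h replicate 2). MAP2K3 region 10, untested between the lines with all libraries, was called there without BT474R control at 12 h replicate 1, its only library with no peak (adjusted p = 0.00154). The call on MAP2K3 region 8 with HRG in BT474R was lost without either control or either HRG library at 1 h, either HRG library at 12 h, or replicate 1 of control or HRG at 24 h. That on region 7 with HRG in BT474 was lost without control at 1 h replicate 2, replicate 1 of HRG at 1 h, of control or HRG at 12 h, or of control at 24 h.

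Replicate numbers are shared across groups, and deviations of same-numbered ligand and control libraries correlated at -0.11 to 0.22 (2 of 12 above 0.1). With 2 libraries in a group this cannot show whether same-numbered libraries were handled together, so the main tests left them unpaired and a replicate block was an alternative. With the replicate block the count called stayed at 1 for HRG in BT474R by percentile (region 8, 10.94, adjusted p = 0.0348) and at 4 between the lines by presence, and the block changed no other call on a member.

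Limits: each group had 2 libraries, and presence between arms at 6 against 6 passed adjustment at no region. Scores under 200 were not listed, and the percentile of a peak moves with the length and makeup of its list. Depth limits what a missing peak means, so a region with no peak was not detectable at the listed threshold rather than closed.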
